A study of Bos taurus with 6 samples.

Results

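Proteins that carry vitamin A and the nuclear receptors that read it were followed in the muscle of 6 steers. The 9 genes were RBP4, TTR, STRA6, CRABP1, CRABP2, RARA, RXRA, RXRB and RXRG. They were taken as every probe set of the array that is not a control and whose platform annotation names 1 gene, equal to one of these symbols. This gave 12 probe sets of 24016 tested, for 9 of the 9155 genes named on the array, 6 by 1 probe set and 3 by 2. STRA6, RARA and RXRG were the genes with 2.

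All steers were castrated males of the Japanese Black breed, and each array held longissimus thoracis muscle of a different steer. Fattening began at 13 to 14 months of age, lasted 7 months and ended at 20 to 21 months, on feed meant for a gain of 1.0 kg a day. The supplemented group was 3 steers that received a weekly oral dose of vitamin A, 296.8 IU for each kg of body weight, and the restricted group was 3 steers that went without it. Ages at sampling were 600 to 618 days in supplemented and 589 to 611 days in restricted steers (exact two-sided permutation p = 0.2). The labels give no blood or liver vitamin A, so how far the groups differed in vitamin A status is not shown by these data. The comparison asks how muscle gene expression differs when the weekly oral dose of vitamin A is withheld.

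Vitamin A leaves the liver as retinol bound to RBP4, which travels in plasma together with TTR. The membrane receptor STRA6 takes retinol from RBP4 into cells, where it is oxidised in steps to retinoic acid. CRABP1 and CRABP2 bind retinoic acid in the cytoplasm. Retinoic acid receptors such as RARA bind DNA as partners of the RXR family, and RXRs also partner other nuclear receptors, among them PPARG of fat cells. RBP4 is also made by adipocytes, which lie between the fibres of marbled beef muscle.

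The deposited values are taken as log2 values and ran from 4.81 to 12.8. They hardly differed between arrays and are therefore given in microunits, 1 microunit being 1e-06 of a deposited log2 unit. The highest and the lowest array of a probe set lay a median of 0.677 microunits apart. The step that gave so narrow a spread is not given in the sources used here, so no difference is read as a fold change. Each probe set is described by the deviation of each steer from its mean over the 6 arrays, in microunits, and by the difference between the diets in within-group standard deviations (SDs), which a constant factor on a probe set does not alter. Values of different probe sets are not set against each other as levels of expression. Muscle fibre markers were present as labelled, 11 measured genes that include ACTA1, MB and CKM lying at deposited log2 values from 8.51 to 12.7. Apart from RXRA (6.46), the probe sets of the 9 genes had mean values from 4.91 (CRABP1) to 5.44 (RARA Bt.26118.1.S1_s_at), toward the low end of the table. Whether they lie above background signal was not tested.

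None of the 12 probe sets passed the test between the diets. The 3 that were higher in restricted steers belonged to RBP4, STRA6 and RARA, and the other 9 were lower. By limma with Benjamini-Hochberg adjustment over all tested probe sets, 0 of 12 had an adjusted p under 0.05, where 0.00416% of all probe sets did, and each of the 12 had an adjusted p of 1. At an unadjusted p under 0.05 the count was 1, RBP4, against 4.08% of all probe sets. In 0 of the 12 did the 3 restricted steers lie entirely above or below the 3 supplemented ones, which was so in 8.76% of all probe sets. The median difference of the 12 was -0.198 SDs and that of all tested probe sets -0.0328 SDs. With 12 probe sets, counts of 0 and 1 are near these background shares and are not read as a result about these genes.

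**Figure D1:**
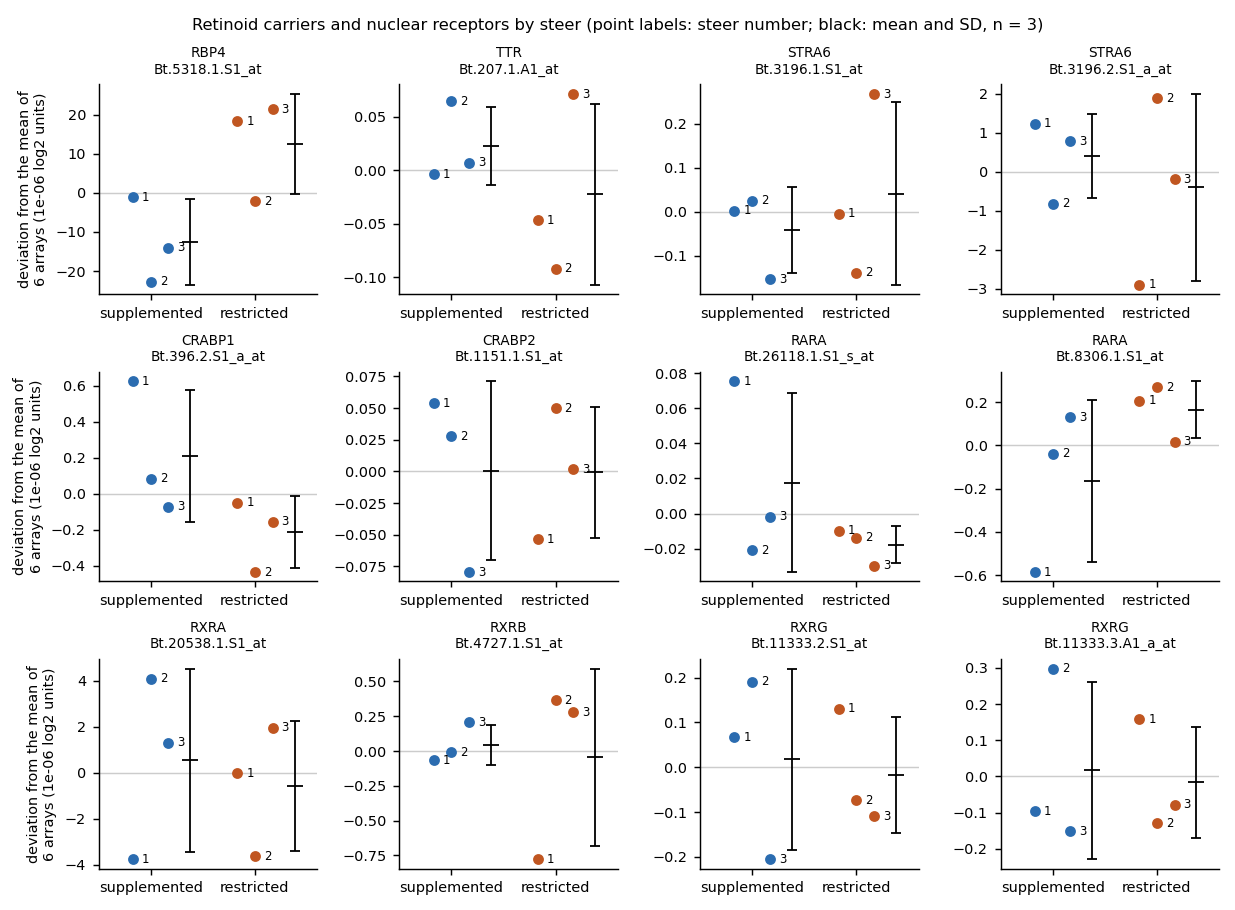
Deviation of each steer from the mean of its probe set over the 6 arrays, in 1e-06 deposited log2 units, for the 12 probe sets; blue points are supplemented and orange points restricted steers, numbered 1 to 3, and black bars give the mean and SD of each group (n = 3). The vertical scale differs between panels, from a range of 0.105 in one RARA probe set to 44.1 in RBP4, and in each panel the groups overlap.

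RBP4, the plasma carrier of retinol, was 2.12 within-group SDs higher in the mean of restricted steers. This was wider than the 11 other probe sets in the fit of all 6 steers on the deposited values without covariates. With age in the fit CRABP1 (-2.14 SDs) and 1 RARA probe set (-2.09 SDs) were wider than RBP4. So were TTR without restricted steer 3 (-2.62 SDs) and RXRB without restricted steer 1 (2.29 SDs). Without supplemented steer 3, CRABP1 (-2.07 SDs) and RARA Bt.8306.1.S1_at (1.92 SDs) were wider. With quantile normalization CRABP2 and TTR came to -1.63 SDs each and RARA Bt.26118.1.S1_s_at to 1.09 SDs. That scaling made most tested probe sets equal on all arrays. The ratios it gave for CRABP2, TTR and RBP4 are ones that tied values produce, so these sizes are not ranked. The RBP4 values deviated by -1.03, -22.7 and -14.0 microunits in supplemented steers 1 to 3 and by 18.4, -2.07 and 21.4 in restricted steers 1 to 3, around a mean deposited log2 value of 5.160255. Restricted steers 1 and 3 lay above all others, but restricted steer 2 lay below supplemented steer 1, so the groups overlapped. The group means were -12.6 ± 10.9 and 12.6 ± 12.8 microunits (SD, n = 3 each). The difference of 25.1 microunits (SE 9.16) equals 2.12 SDs with a 95% interval from 0.0643 to 4.17 SDs and a limma unadjusted p of 0.0456, adjusted p of 1. The exact two-sided permutation p was 0.2, where 0.1 is the smallest that 3 against 3 allows. RBP4 was 1.70 to 3.61 SDs higher when any single steer was left out, 1.76 SDs with age in the fit, 0.816 SDs with quantile normalization and 4.01 SDs with a replicate block (limma unadjusted p = 0.0191). Its 95% interval held 0 without supplemented steer 2 or 3 or restricted steer 1 or 3, 4 of the 6 (limma unadjusted p from 0.113 to 0.126), and with age in the fit (unadjusted p = 0.140). Without supplemented steer 1, or without restricted steer 2, the groups of RBP4 no longer overlapped.

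RBP4 ran with adipocyte markers from steer to steer. A score was formed as the mean of 16 measured adipocyte genes, each in SDs over the 6 arrays. It was 0.180, -1.12 and -0.621 in supplemented steers 1 to 3 and 1.15, -0.320 and 0.729 in restricted steers 1 to 3. Supplemented steer 2 was thus lowest and supplemented steer 3 next for both RBP4 and the score, and restricted steer 2 was the lowest of its group for both. Over the 6 steers RBP4 and the score correlated with Pearson's r = 0.963 (exact permutation p = 0.00556, adjusted p = 0.0444 over 8 marker lists) and Spearman's rho = 0.943 (exact permutation p = 0.0167, adjusted p = 0.133). Without the 2 steers farthest from the median score, supplemented steer 2 and restricted steer 1, r was 0.945. This relation was looked for after the values of RBP4 had been seen, and the steers differ in diet as well as in both measures.

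The summed deposited log2 level of the 16 adipocyte genes ran from 101.168284 to 101.259515 in supplemented and from 101.211423 to 101.278409 in restricted steers. These ranges overlapped. The sum leans on the genes that varied most, since single genes ranged over 5.75 to 26470 microunits. All 16 had higher means in restricted steers, where 49.5% of all 9155 genes did, and 0 passed the adjusted threshold (limma). The 16 genes were read from the same 6 steers and most ran with RBP4, so this count is not 16 separate observations. The adipocyte score averaged 0.520 (SD 0.758) for the restricted diet and -0.520 (SD 0.655) for the supplemented diet, and single steers overlapped. An unadjusted p under 0.05 was found for 2 of the 16, against 4.62% of all genes, and the groups did not overlap for 4 of the 16, against 8.74%. The 2 were CFD (6.35 SDs, limma unadjusted p = 0.000717), without overlap, and DGAT2 (2.07 SDs, limma unadjusted p = 0.0488), whose groups overlapped. CFD was highest in restricted steer 2, unlike RBP4, and had r = 0.757 with RBP4. Muscle fibre markers had lower means in restricted steers for 8 of 11 measured genes, with 0 past the adjusted threshold. Among them PYGM, muscle glycogen phosphorylase, had a difference of -4.13 SDs (limma unadjusted p = 0.00424). MYH1, a fast myosin heavy chain, was at -3.46 SDs (limma unadjusted p = 0.00836) on the probe set of highest mean among its 8. Both were without overlap, and the other MYH1 probe sets are not given here. Nerve markers had 2 higher and 3 lower means, and fibroblast and preadipocyte markers 4 higher and 8 lower. In these lists the myelin gene MBP, shown by 1 of its 3 probe sets, was at -3.15 SDs (limma unadjusted p = 0.0119). CD34 of stromal cells was at -2.65 SDs (limma unadjusted p = 0.0221), and for neither gene did the groups overlap. Outside the adipocyte list, other markers without overlap were CPS1 (2.40 SDs) and FGB (1.61 SDs) of hepatocytes and AIF1 (-1.90 SDs) of macrophages. FGB was shown by 1 of its 2 probe sets. The part of these marker shifts in the RBP4 values was not tested. Single adipocyte genes correlated with RBP4 at a median r of 0.855, and 11 of 16 had r of at least 0.8, where 3.16% of all 9153 genes compared with RBP4 did, these 16 included. DGAT2, which completes triglyceride synthesis, had r = 0.989, GPAM of glycerolipid synthesis 0.963, the lipid droplet protein CIDEA 0.955, PPARG 0.921 and the adipokine ADIPOQ 0.920. LEP, at 0.310, was the least like RBP4. In bulk tissue more adipocytes and more RNA per adipocyte cannot be told apart.

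The 7 other marker lists ran less closely with RBP4 in these 6 steers. Hepatocyte markers, listed because liver is the main source of plasma RBP4 and TTR, had r = 0.552 (exact permutation p = 0.249, adjusted p = 0.663). The other r values were -0.585 for muscle fibre, 0.314 for fibroblast and preadipocyte, 0.127 for endothelial, -0.231 for macrophage and lymphocyte, -0.0275 for nerve and 0.262 for red blood cell markers, with adjusted exact permutation p from 0.663 to 0.950. Their Spearman's rho ran from -0.600 to 0.657 over the 7 lists (adjusted exact permutation p from 0.644 to 1), and r without the 2 farthest steers from -0.966 for nerve markers to 0.404 for fibroblast markers. Whether the adipocyte correlation differs from these was not tested.

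**Figure D2:**
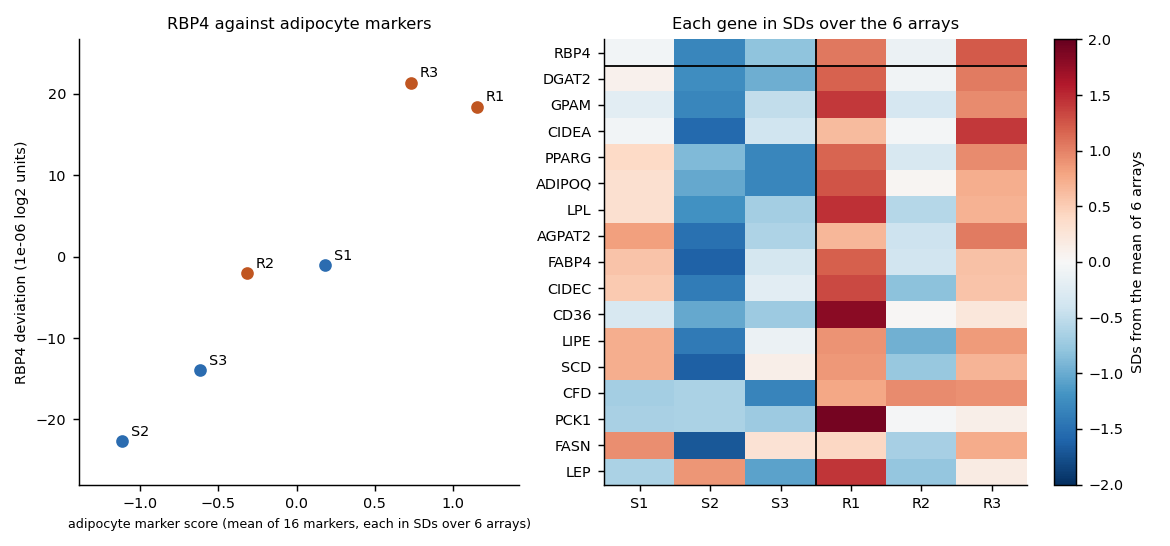
Left, the deviation of RBP4 in 1e-06 deposited log2 units against the adipocyte marker score for 3 supplemented (S, blue) and 3 restricted steers (R, orange); right, RBP4 and the 16 adipocyte genes in SDs from their mean over the 6 arrays, ordered by their correlation with RBP4. Supplemented steer 2 is lowest on both axes and restricted steers 1 and 3 are highest on both.

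TTR, the plasma partner of RBP4, had a lower mean in restricted steers, where RBP4 was higher, and no correlation between them was computed. The TTR values deviated by -0.00383, 0.0642 and 0.00717 microunits in supplemented and by -0.0468, -0.0918 and 0.0712 in restricted steers. The highest and the lowest steer were both restricted ones, and the group means of 0.0225 ± 0.0365 and -0.0225 ± 0.0842 lay within the spread (SD, n = 3 each). The difference was -0.694 SDs with a 95% interval from -2.98 to 1.59 SDs (limma unadjusted p = 0.460). It moved to -2.62 SDs without restricted steer 3, when the groups no longer overlapped, and to -0.182 SDs without restricted steer 2. With age in the fit it was 0.114 SDs. Quantile normalization gave -1.63 SDs, a ratio that tied values produce and that is not read as a size. TTR is a product of liver, and its whole range over the 6 arrays, 0.163 microunits, was wider than that of 18.5% of the tested probe sets.

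The 2 probe sets of STRA6, the membrane receptor for RBP4, did not rank the steers alike as deposited. On Bt.3196.1.S1_at the steers deviated by 0.00267, 0.0257 and -0.153 microunits when supplemented and by -0.00433, -0.138 and 0.268 when restricted, with restricted steer 3 apart from the rest. On Bt.3196.2.S1_a_at the deviations were 1.23, -0.818 and 0.789 in supplemented and -2.89, 1.88 and -0.197 in restricted steers, whose lowest and highest values came from restricted steers 1 and 2. The differences between the diets were 0.515 SDs (95% interval -1.58 to 2.61, limma unadjusted p = 0.544) and -0.432 SDs (-2.49 to 1.62, unadjusted p = 0.603). Between the probe sets r was -0.337 (exact permutation p = 0.503, adjusted p = 0.503 over 3 pairs) and rho -0.371 (exact permutation p = 0.497, adjusted p = 0.746), and r was -0.587 without the 2 steers farthest from the median. With arrays shifted to the same median, r became 0.949 and the first probe set turned to -0.733 SDs.

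CRABP1, a cytoplasmic binder of retinoic acid, was 1 of the 9 probe sets with lower means in restricted steers, and kept that sign without any single steer. It deviated by 0.625, 0.0837 and -0.0723 microunits in supplemented and by -0.0483, -0.433 and -0.154 in restricted steers. Only supplemented steer 3 and restricted steer 1 kept the groups from separating, by a small margin. The group means were 0.212 ± 0.366 and -0.212 ± 0.199 (SD, n = 3 each), a difference of -0.424 microunits (SE 0.228) or -1.44 SDs with a 95% interval from -3.51 to 0.625 (limma unadjusted p = 0.129). Leaving out single steers gave -2.07 to -1.04 SDs.

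CRABP2, which hands retinoic acid to its receptors in the nucleus, had nearly equal means in the diets, and the sign of its difference turned when each array was shifted by its median deviation. The deviations were 0.0537, 0.0277 and -0.0793 microunits in supplemented and -0.0533, 0.0497 and 0.00167 in restricted steers, and each group held both high and low steers. The difference was -0.0216 SDs, with a 95% interval from -2.33 to 2.29 SDs that leaves room for a difference of either sign (limma unadjusted p = 0.981).

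Of the nuclear receptors, RARA, a receptor for retinoic acid itself, was measured by 2 probe sets with differences of opposite sign, which turned for the first with quantile normalization and for the second with arrays shifted to the same median. On Bt.26118.1.S1_s_at the supplemented steers deviated by 0.0753, -0.0207 and -0.00167 microunits and the restricted ones by -0.00967, -0.0137 and -0.0297. On Bt.8306.1.S1_at they deviated by -0.585, -0.0388 and 0.131 and by 0.206, 0.270 and 0.0162. Supplemented steer 1 was the highest of all 6 on the first probe set and the lowest on the second, and stood apart on both. The differences were -0.962 SDs (95% interval -3.67 to 1.75, limma unadjusted p = 0.393) and 1.17 SDs (-0.896 to 3.24, unadjusted p = 0.198). The first was -0.560 SDs without supplemented steer 1, -1.67 SDs without supplemented steer 2 and -2.09 SDs with age in the fit. The second was 1.92 SDs without supplemented steer 3.

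The correlation between the RARA probe sets rested on supplemented steer 1. Over all 6 steers r was -0.844 (exact permutation p = 0.143, adjusted p = 0.215) and rho -0.143 (exact permutation p = 0.803, adjusted p = 0.803). Without supplemented steer 1 and restricted steer 3, the 2 farthest from the median, r turned to 0.438, and with arrays shifted to the same median it was 0.994 over all 6. In the naming of such arrays the ending _s_at marks a probe set whose probes match more than 1 transcript, which holds for the first of these probe sets.

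RXRA, the broadly expressed partner receptor, had the widest range after RBP4. It deviated by -3.75, 4.10 and 1.31 microunits in supplemented and by -0.00400, -3.61 and 1.96 in restricted steers. Supplemented steer 1 and restricted steer 2 were low and supplemented steer 2 was high, so the spread lay within the diets. The group means were 0.552 ± 3.98 and -0.552 ± 2.83 (SD, n = 3 each), and the difference was -0.320 SDs with a 95% interval from -2.37 to 1.73 (limma unadjusted p = 0.697).

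RXRB, another partner receptor found in most tissues, deviated by -0.0667, -0.00667 and 0.205 microunits in supplemented and by -0.778, 0.366 and 0.279 in restricted steers. Restricted steer 1 was far below the other 5. The difference was -0.191 SDs with a 95% interval from -2.25 to 1.87 (limma unadjusted p = 0.816). Without restricted steer 1 it turned to 2.29 SDs and the groups no longer overlapped, so that 1 steer set the direction.

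RXRG, the family member found mainly in muscle and brain, had 2 probe sets that ranked the steers much alike. On Bt.11333.2.S1_at the deviations were 0.0665, 0.192 and -0.206 microunits in supplemented and 0.131, -0.0735 and -0.110 in restricted steers. On Bt.11333.3.A1_a_at they were -0.0968, 0.298 and -0.152 and then 0.158, -0.130 and -0.0778. Supplemented steer 2 was highest, restricted steer 1 next and supplemented steer 3 lowest on both. Between the probe sets r was 0.854 (exact permutation p = 0.0153, adjusted p = 0.0458 over the 3 pairs) and rho 0.829 (exact permutation p = 0.0583, adjusted p = 0.175), with r = 0.730 without the 2 farthest steers, supplemented steers 2 and 3. The adjusted p of r was 0.0542 when each array was shifted by its median deviation. The pattern they shared did not follow the diets, whose differences were -0.206 SDs (95% interval -2.29 to 1.88, limma unadjusted p = 0.805) and -0.161 SDs (-2.24 to 1.92, unadjusted p = 0.845).

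**Figure D3:**
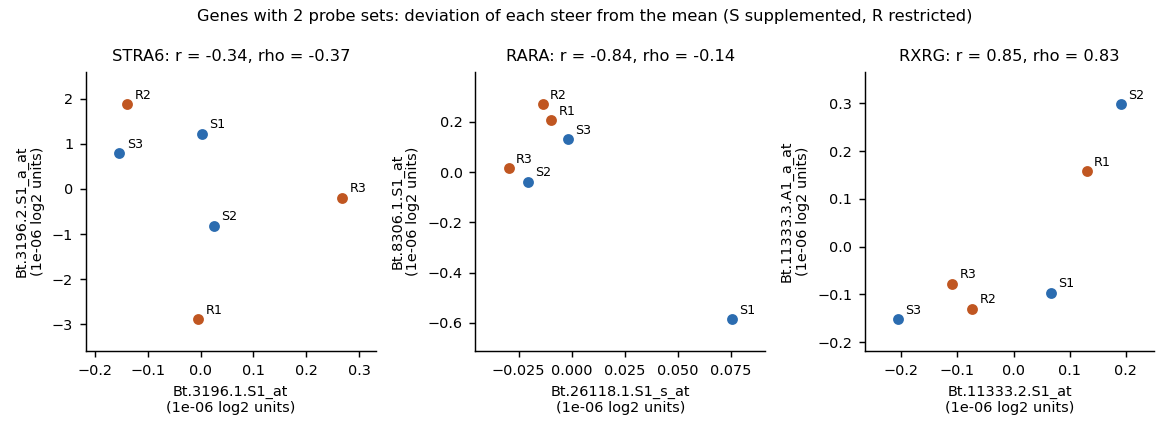
Deviation of each steer, in 1e-06 deposited log2 units, on the 2 probe sets of STRA6, RARA and RXRG (S and blue, supplemented; R and orange, restricted; n = 6). The steers line up for RXRG (r = 0.854), scatter for STRA6 (r = -0.337) and form a group of 5 apart from supplemented steer 1 for RARA (r = -0.844).

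**Figure D4:**
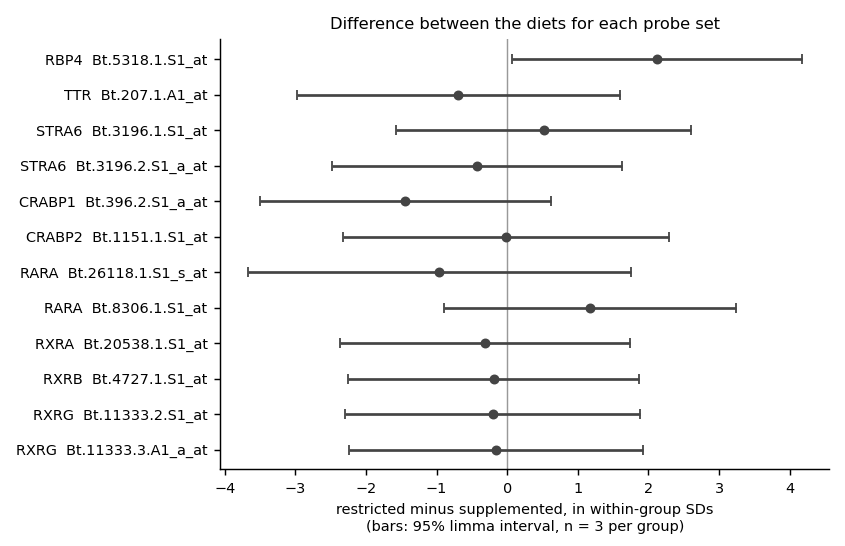
Difference between restricted and supplemented steers for each of the 12 probe sets, in within-group SDs of the same probe set, with the 95% interval from limma before adjustment (n = 3 per group). The interval of RBP4 runs from 0.0643 to 4.17 and those of the 11 other probe sets hold 0.

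The members also differed in how much they varied over the 6 steers. RBP4 ranged over 44.1 microunits, more than 94.3% of the tested probe sets, RXRA over 7.85 (more than 84.9%) and the second STRA6 probe set over 4.77 (more than 80.6%). The narrowest were the first RARA probe set at 0.105 microunits, CRABP2 at 0.133 and TTR at 0.163. In 7 of the 12 the whole range was under 1 microunit. No steer was always extreme: supplemented steer 3 was lowest on 4 probe sets, and supplemented steers 1 and 2 and restricted steers 2 and 3 were each highest on 3. Because the scale of the values differs between probe sets for a reason not given in the sources used here, a wide range is not read as strong regulation.

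**Figure D5:**
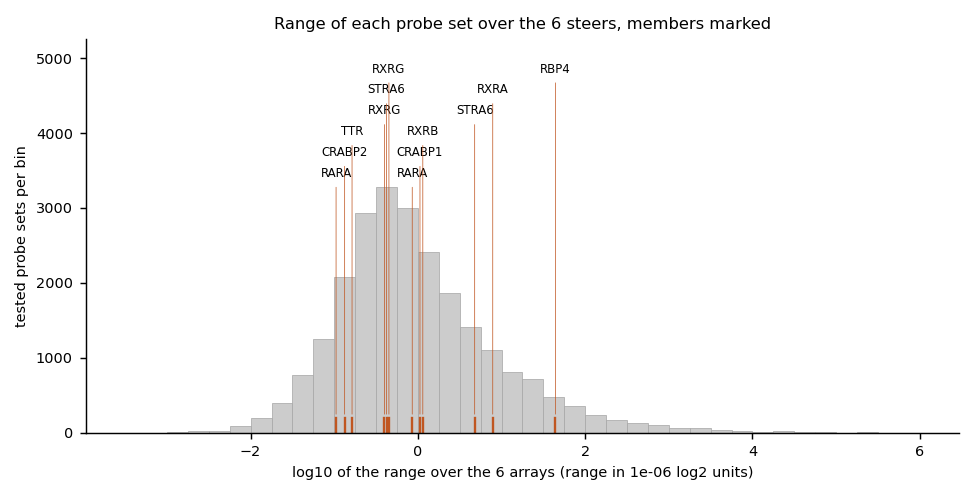
Number of tested probe sets by the log10 of their range over the 6 arrays, the range being in 1e-06 deposited log2 units, with the 12 probe sets of the retinoid carriers and receptors marked in orange. Of the 12, 7 lie below 0 on this axis (a range under 1 microunit) and RBP4 lies farthest right at a range of 44.1; the 2 tested probe sets that did not vary at all are not drawn.

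Among other genes that bind retinoids or lipids or act in their uptake, 5 of 12 listed genes were measured. Of these 4 were higher and 1 lower, with 0 past the limma adjusted threshold (0 at an unadjusted p under 0.05). CD36, a fatty acid transporter, was 1.88 SDs higher in restricted steers (limma unadjusted p = 0.0643). FABP5, which can carry retinoic acid to PPARD, was 1.17 SDs higher (limma unadjusted p = 0.195). LPL, a lipase that acts on lipoproteins, was 1.15 SDs higher (limma unadjusted p = 0.201). The groups did not overlap for CD36 and FABP5, 2 of the 5, against 8.74% of all genes. For FABP5, shown by 1 of its 2 probe sets, restricted steer 2 (-397 microunits) lay just above supplemented steer 3 (-413). CD36 and LPL were also listed as adipocyte genes.

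Of the retinoid enzymes 20 of 30 were measured, 12 with higher and 8 with lower means in restricted steers, at a median of 0.147 SDs against -0.00788 SDs over 9155 genes. DHRS3, which returns retinaldehyde to retinol, was the 1 that fell past the adjusted threshold. It deviated by 215, 213 and 228 microunits in supplemented and by -212, -225 and -219 in restricted steers, with wide separation of the groups. Its difference of -60.5 SDs (limma adjusted p = 0.000794) has no counterpart among the carriers and receptors, whose differences ran from -1.44 to 2.12 SDs. Its difference was -436 microunits with age in the fit and -437 microunits in the paired fit with a replicate block, where the adjusted p by limma was 0.0617 and 0.521. Residual degrees of freedom fell from 4 to 3 with age and to 2 with the block, and 0 probe sets were called in either fit. In the other alternatives the adjusted p of DHRS3 ran from 3.84e-05 to 0.0492 (limma). RDH16, a retinol dehydrogenase, had a difference of -2.68 SDs (unadjusted p = 0.0384), and BCO1, which splits beta-carotene, one of -2.11 SDs (unadjusted p = 0.0493), both by limma, with an adjusted p of 1 and without overlap of the groups. In this list 5 of 20 genes did not overlap (1 higher, 4 lower), against 8.74% of all genes. An unadjusted p under 0.05 (limma) was found for 3 of the 20, against 4.62%.

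RARB and RARG were not analysed here. Of the receptors that pair with RXR, 9 of 13 were measured, 4 higher and 5 lower, with 0 past the limma adjusted threshold, 0 at an unadjusted p under 0.05 and 0 without overlap. PPARG, the receptor that drives fat cell formation, was 1.41 SDs higher in restricted steers (limma unadjusted p = 0.135). It deviated by 0.926, -2.03 and -3.03 microunits in supplemented and by 2.71, -0.750 and 2.17 in restricted steers, where restricted steers 1 and 3 were highest, as for RBP4. PPARG was also counted among the adipocyte genes above. The thyroid hormone receptor THRA was 1.08 SDs higher (limma unadjusted p = 0.226). The oxysterol receptor NR1H3, shown by 1 of its 2 probe sets, was 1.07 SDs higher (limma unadjusted p = 0.237).

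Coactivators and corepressors of nuclear receptors were measured for 8 of 16 listed genes, 4 higher and 4 lower, with 0 past the limma adjusted threshold, 0 at an unadjusted p under 0.05 and 0 without overlap. The corepressor NCOR1, shown by 1 of its 5 probe sets, was 1.08 SDs higher (limma unadjusted p = 0.228). Its partner TBL1XR1, shown by 1 of its 2 probe sets, was 0.641 SDs higher (limma unadjusted p = 0.448). The coactivator CREBBP was at -0.420 SDs (limma unadjusted p = 0.612). Gene counts in these lists use the probe set of highest mean for each gene.

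Genes whose values followed a member most closely over the 6 arrays were sought among all probe sets with 1 gene. As the highest of 13290 values for RBP4 and of 13289 for RARA and RXRG, their correlations are a description, and all share the same 6 arrays. For RBP4 they were PCCA of propionyl-CoA breakdown (r = 0.993), the mitochondrial peroxiredoxin PRDX3 (0.989), DGAT2 (0.989), LY6G6F (0.986) and the glutamine transporter SLC1A5 (0.984). For RARA, on Bt.26118.1.S1_s_at, they were MOCS3 (r = 0.990), SCIN (0.986), NARS1 (0.985), MYL1 (0.980) and IGFBP6 (0.976), in a pattern where supplemented steer 1 stands apart. For RXRG, on Bt.11333.3.A1_a_at, they were C20H5orf34 (r = 0.998), KRTCAP3 (0.990), CD52 (0.988), FGF11 (0.988) and NECTIN2 (0.987), with supplemented steer 2 and restricted steer 1 high.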

How the data were processed

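Biotin-labelled RNA was made from 100 ng of total RNA for a 3 prime GeneChip array, per the labels' protocols. The deposited log2 values form 1 table of 24128 probe sets on 6 arrays; how the authors corrected, normalized and summarized the signals, and the logarithm's base, is not stated in the labels. The table has 9 decimals. The 112 control probe sets were left out. Symbols came from the platform annotation, and for 12 of 12 the identifier and symbol matched RefSeq's present gene table. Positions are left out, as the array's genome build is unnamed.

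Values were scaled by 1e+06 and tested by limma 3.58.1, run under R 4.3.3 (eBayes without trend; 0.483 prior and 4 residual degrees of freedom), the p-values being adjusted by the Benjamini-Hochberg method across the 24016 probe sets. Correlations and group differences used exact two-sided permutation tests, with numpy 2.4.6 for correlations and scipy 1.17.1 for group differences. The fitting script was tested on simulated data. Arrays have no read depth, and 3 per group limits the precision. Same-numbered steers were not treated as pairs, since their deviations from group means correlated at 0.0374, 0.0151 and 0.0152, below the minimum of 0.1. That rule cannot exclude pairing, so a fit with a replicate block is also given.

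Members, gene lists and alternatives were chosen with earlier results of these data known. The alternatives were other scalings, array weights, trend and robust variance, a filter on low values, age, the replicate block and leaving out each steer. Named genes were all members, DHRS3, up to 3 genes per pathway list by smallest p and, for RBP4, RARA and RXRG, the 5 genes with the most similar values. No sequences are shown.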

Additional observations from a re-analysis of the deposited data

How the results depend on the processing

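In the 15 alternatives run, 0 of the retinoid carrier and receptor probe sets tested were called; the filter on low values tested 10 of them, leaving out CRABP1 and CRABP2, and quantile normalization fewer, as given below. Over all probe sets the count of 1 became 0 when age was fitted as well, 0 in the fit with a replicate block, 22 with quantile normalization, and 1 to 2 without a steer. Every steer correlated best with the same-numbered steer of the other diet, but weakly. The block left all 12 directions as they were. Quantile normalization made 15456 probe sets equal on all arrays and gave no difference for 8 of the 12. In the other 4 it turned RARA Bt.26118.1.S1_s_at to 1.09 SDs.

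The array medians differ by 8.88 microunits, yet the arrays' median deviation from the probe set means is at most 0.00817. Shifting arrays to the same median therefore adds an offset wider than most members: STRA6 Bt.3196.1.S1_at became -0.733 and RARA Bt.8306.1.S1_at -0.602 SDs, the correlations of the STRA6 and RARA pairs became 0.949 and 0.994, and 1 member, RBP4, no longer overlapped. A shift by the median deviation, added after seeing the data, turned only CRABP2 (0.0296 SDs). Age turned TTR to 0.114, RXRA to 0.477 and RXRB to 0.567 SDs. The cause was not tested.

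Leaving out single steers, 1 to 2 members did not overlap, where 17.9% to 19.4% of all probe sets did not. Members that turned ran from -0.952 to 0.415 SDs (CRABP2), -0.307 to 1.27 and -1.38 to 0.362 (STRA6), -1.27 to 0.216 (RXRA), -0.656 to 2.29 (RXRB), and -1.25 to 0.339 and -0.597 to 0.847 (RXRG).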
